A study of Homo sapiens with 6 samples.

Results

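The enzymes that make serine and pass its carbon into the folate cycle were examined in HEK293 cells with and without MUL1. The genes were chosen by name, as PHGDH, PSAT1, PSPH, SHMT1, SHMT2, MTHFD1, MTHFD2, MTHFD1L, ALDH1L1 and ALDH1L2, which are 10 of the 57123 genes in the count tables. All 10 had enough counts to be tested. HEK293, an established line, derives from human embryonic kidney, and MUL1 is a ubiquitin ligase of the outer mitochondrial membrane. The cells were either WT or MUL1(−/−), the latter inactivated with CRISPR-Cas9, and both were cultured without drug treatment in DMEM that held L-glutamine, fetal calf serum, penicillin and streptomycin. RNA was sequenced in 3 libraries of each genotype. Neither the labels nor the methods say whether the 3 libraries of a genotype were separate cultures or clones, so the p-values measure the spread between these libraries, which may be technical, and a difference of genotype cannot be told apart from a difference between cell clones.

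Serine is made from the glycolytic intermediate 3-phosphoglycerate by PHGDH, PSAT1 and PSPH, in that order. A serine hydroxymethyltransferase, SHMT2 in mitochondria or SHMT1 in the cytosol, then splits serine into glycine and a carbon unit that is held by tetrahydrofolate. In mitochondria MTHFD2 oxidises that unit and MTHFD1L releases it as formate, which MTHFD1 in the cytosol loads on folate again for purine and thymidylate synthesis. ALDH1L1 in the cytosol and ALDH1L2 in mitochondria burn the formyl unit to carbon dioxide and yield NADPH. Several of these genes, among them PHGDH, PSAT1, SHMT2 and MTHFD2, are known targets of the stress-responsive factor ATF4, and the set is often raised in dividing and cancer cells.

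The enzyme with the most exon bins whose share of its counts differed between the genotypes was MTHFD1L, on chromosome 6 of GRCh38 from 150865549 to 151101887, plus strand. GENCODE 29 lists 12 transcripts of it. The full-length transcript MTHFD1L-203 has 28 exons and 3604 bases, while the short transcript MTHFD1L-201 shares exons 2 to 7 with it and then ends in an exon of its own, exon 8 of 8, for a length of 1049 bases. The sequence of the full-length transcript is shown where the short one leaves it. Lower case marks the last 30 bases of exon 7 (chr6:150887952-150887981, plus strand), which both transcripts hold, and capitals mark the first 45 bases of exon 8 of MTHFD1L-203 (chr6:150905650-150905694, plus strand).
MTHFD1L-203: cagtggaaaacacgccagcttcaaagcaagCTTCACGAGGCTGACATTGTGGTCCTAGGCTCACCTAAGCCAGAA
These bases were taken from the GENCODE 29 transcripts on GRCh38. Stretches of 25 bases of the last exon of MTHFD1L-201 also occur, on either strand, in transcripts of 84 of 58675 other genes, while those of exon 8 of MTHFD1L-203 occur in 0 of them. Reads of the short exon may therefore map to several places.

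The values were raw read counts in exon bins, the pieces into which exon edges divide a gene, and bins were summed to give the count of each gene. A level is given as CPM, the count scaled by library size after TMM normalization. Library totals ran from 127015142 to 142803296 in WT and from 121917971 to 122441959 in MUL1(−/−), and a floor of 3 counts corresponded to 0.0212 to 0.0242 CPM. MUL1 RNA stood at 15.4, 15.2 and 19.0 CPM in WT and at 18.7, 16.7 and 19.2 CPM in MUL1(−/−), which overlap (log2 fold change 0.14, SE 0.10; adjusted p = 0.321 in edgeR's quasi-likelihood test). The RNA level of the targeted gene thus does not check the labels, and directions here rest on the libraries labelled MUL1(−/−). Of 10 markers of HEK293 cells, kidney and neuronal lineage, NEFM and SALL2 rose and PAX2, LHX1, VIM and KRT8 fell, and their summed level was 1364 to 1588 CPM in WT and 1001 to 1172 CPM in MUL1(−/−). Of 6 fibroblast markers, COL3A1, DCN and LUM rose and COL1A1 fell, and their sum went from 28.04 to 38.02 CPM in WT to 39.5 to 55.1 CPM in MUL1(−/−). Of 6 blood cell markers, 2 rose, PTPRC among them, the sum was 1.32 to 2.11 against 2.30 to 3.16 CPM, and CD3E had no more than 3 counts in any library. The part of these markers in the results below was not tested.

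At an adjusted p under 0.05, 2 of the 10 enzymes rose in MUL1(−/−) cells, SHMT1 and ALDH1L1, and 2 fell, MTHFD2 and ALDH1L2 (edgeR's quasi-likelihood test, adjusted over 25125 genes). Across all genes tested, 37.5% passed the same threshold, 18.8% upward and 18.7% downward, so 4 of 10 is close to the share of any genes. None of the 10 also had an absolute log2 fold change above 1, which 8.11% of all genes had; the count was also 0 by DESeq2, by limma-voom and at an unadjusted p under 0.05 in each of these tools. The median log2 fold change of the 10 was 0.00, and that of all genes tested was -0.01. In 5 of the 10 the ranges of the genotypes were apart, higher in MUL1(−/−) for PSPH, SHMT1 and ALDH1L1 and lower for MTHFD2 and ALDH1L2, against 48.5% of all genes tested. In bulk RNA, fewer cells that express a gene and less of its RNA per cell cannot be told apart.

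**Figure D1:**
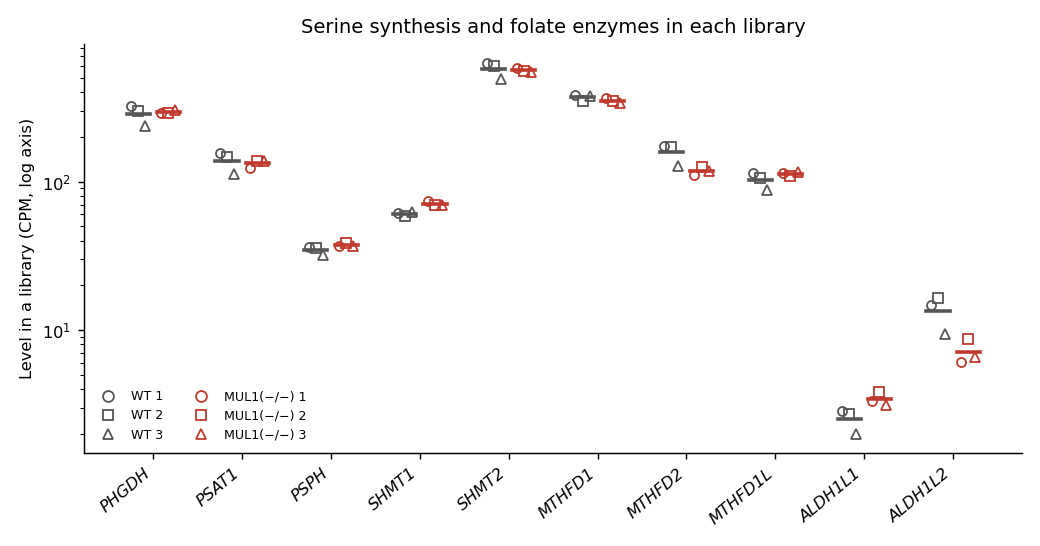
Level of each enzyme in each library, in CPM on a log axis. Symbols give the replicate, grey is WT, red is MUL1(−/−), and bars are means of 3 libraries. ALDH1L2 was at least 9.34 CPM in each WT library and at most 8.76 CPM in each MUL1(−/−) library, and WT library 3 (grey triangle) was the lowest WT library for 8 of the 10 genes.

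PHGDH, the first and committed enzyme of serine synthesis, lies on chromosome 1 from 119648411 to 119744226. It stood at 324, 299 and 237 CPM in WT libraries 1 to 3 and at 287, 291 and 303 CPM in MUL1(−/−). The MUL1(−/−) values lay inside the range of WT (log2 fold change 0.03, SE 0.09, adjusted p = 0.805, edgeR). PSAT1, the aminotransferase of the pathway on chromosome 9 from 78297143 to 78330093, gave 156, 146 and 113 CPM in WT and 124, 138 and 138 CPM in MUL1(−/−). The groups overlapped here as well (log2 fold change -0.05, SE 0.10, adjusted p = 0.751, edgeR). PSPH, the phosphatase that releases serine, lies on chromosome 7 from 56011051 to 56051604 and measured 36.2, 35.6 and 32.0 CPM in WT and 36.8, 38.4 and 37.0 CPM in MUL1(−/−). Its MUL1(−/−) values were all above WT, by 0.11 on the log2 scale (SE 0.08), and the difference did not pass the test (adjusted p = 0.263, edgeR). None of the 3 genes of serine synthesis was called, under this or any of 15 alternative fits, and 0 had an unadjusted p under 0.05 by edgeR, DESeq2 or limma-voom.

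SHMT1, the cytosolic serine hydroxymethyltransferase on chromosome 17 from 18327860 to 18363563, stood at 61.3, 58.3 and 62.0 CPM in WT and rose to 73.9, 69.7 and 69.4 CPM in MUL1(−/−). The groups were apart by more than their spread (log2 fold change 0.23, SE 0.07, adjusted p = 0.0144, edgeR). The call was lost without WT library 2 (0.20, adjusted p = 0.0891, edgeR). SHMT2, the mitochondrial form on chromosome 12 from 57229327 to 57234935, was at 634, 599 and 493 CPM in WT and 586, 555 and 546 CPM in MUL1(−/−). Its groups overlapped (log2 fold change -0.03, SE 0.08, adjusted p = 0.797, edgeR).

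The genes around SHMT1 moved with it. Of the 10 tested genes on each side of SHMT1 along chromosome 17, 14 of 20 were higher in MUL1(−/−) and 0 lower, and their median log2 fold change was 0.52, with quartiles of 0.37 and 0.97. The value of SHMT1 itself was 0.29 below that median. Among the other enzymes, PHGDH had 6 neighbours higher and 1 lower, with a median of 0.14, and for the remaining 8 the median of the neighbours lay between -0.12 and 0.03. What raised the genes around SHMT1 was not tested.

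MTHFD1, the cytosolic enzyme with the synthetase, cyclohydrolase and dehydrogenase steps in a single chain, lies on chromosome 14 from 64388031 to 64463457. It measured 381, 351 and 379 CPM in WT and 365, 349 and 338 CPM in MUL1(−/−), which overlap (log2 fold change -0.08, SE 0.06, adjusted p = 0.370, edgeR). MTHFD2, the mitochondrial dehydrogenase and cyclohydrolase on chromosome 2 from 74198562 to 74217565, fell from 174, 170 and 128 CPM in WT to 111, 125 and 117 CPM in MUL1(−/−). The lowest WT library lay just above the highest MUL1(−/−) library. This was -0.42 on the log2 scale (SE 0.10, adjusted p = 0.00336, edgeR), and MTHFD2 passed the test in all 15 alternative fits, from -0.34 to -0.55. Of its counts, 32.3% fell in bins that exons of other genes also cover, and counting did not use the strand. On the remaining bins alone the value was -0.42 (adjusted p = 0.00349, edgeR).

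ALDH1L2, the mitochondrial formyltetrahydrofolate dehydrogenase on chromosome 12 from 105019784 to 105084577, showed the largest change of the 10. It stood at 14.8, 16.5 and 9.34 CPM in WT and at 6.12, 8.76 and 6.57 CPM in MUL1(−/−), without overlap. The WT mean of 13.5 ± 3.72 CPM and the MUL1(−/−) mean of 7.15 ± 1.41 CPM (SD, n = 3) differed by -0.92 on the log2 scale (SE 0.18, adjusted p = 7.76e-04, edgeR). It passed the adjusted p in all 15 alternative fits, from -0.76 to -1.13, and went beyond -1 without WT library 3 (-1.13), without MUL1(−/−) library 2 (-1.08) and on its most counted bin (-1.01). ALDH1L1, the cytosolic partner on chromosome 3 from 126103562 to 126197994, was at 2.83, 2.71 and 1.98 CPM in WT and 3.31, 3.84 and 3.10 CPM in MUL1(−/−). Its values were higher in each MUL1(−/−) library, by 0.45 on the log2 scale (SE 0.15, adjusted p = 0.0283, edgeR). That call was lost without WT library 3 (0.30, adjusted p = 0.104, edgeR), without MUL1(−/−) library 1 (0.48, adjusted p = 0.0529, edgeR) and without MUL1(−/−) library 2 (0.37, adjusted p = 0.108, edgeR). On its most counted bin the log2 fold change of ALDH1L1 was 0.00.

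**Figure D2:**
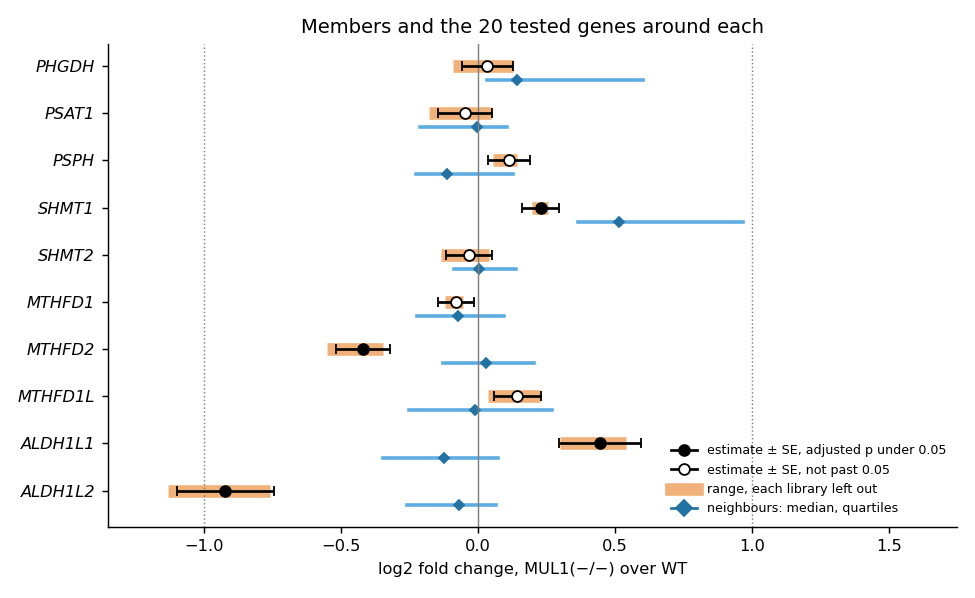
Log2 fold change of each enzyme, MUL1(−/−) over WT. Circles with bars are the edgeR estimate ± SE, filled where the adjusted p was under 0.05; orange bands span the 6 fits that each leave out a library; blue diamonds and lines are the median and quartiles of the 20 tested genes around each, and dotted lines mark -1 and 1. SHMT1 at 0.23 lies below the quartiles of its neighbours, 0.37 to 0.97, while MTHFD2 and ALDH1L2 lie below neighbours whose medians were 0.03 and -0.07.

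WT library 3 stood apart from the other WT libraries for these enzymes. It was the lowest of the 3 WT libraries for 8 of 10, against 43.0% of the 15858 genes whose mean was 1 CPM or more. Relative to the mean of WT libraries 1 and 2 it held 0.598 of ALDH1L2, 0.714 of ALDH1L1, 0.746 of MTHFD2, 0.747 of PSAT1, 0.760 of PHGDH, 0.795 of MTHFD1L, 0.801 of SHMT2 and 0.890 of PSPH, and 1.03 and 1.04 of MTHFD1 and SHMT1. With this library left out, MTHFD2 was lower by a log2 fold change of -0.55 (adjusted p = 3.94e-05, edgeR) and ALDH1L2 by -1.13 (adjusted p = 1.85e-05, edgeR), while PHGDH (-0.09), PSAT1 (-0.18) and SHMT2 (-0.14) were all below 0 and did not pass the test (adjusted p = 0.332, 0.0755 and 0.123, edgeR). PSPH (0.06), MTHFD1L (0.04) and ALDH1L1 (0.30) stayed above 0 and did not pass either (adjusted p = 0.598, 0.710 and 0.104, edgeR). The same library was also the lowest in WT for ATF4, at 305 CPM against 423 and 404, and for MYC, at 182 CPM against 302 and 282.

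Each mitochondrial enzyme was also set against its cytosolic counterpart within the same library, which does not depend on scaling between libraries. ALDH1L2 had 5.23, 6.08 and 4.72 counts per count of ALDH1L1 in WT and 1.85, 2.28 and 2.12 in MUL1(−/−). The groups were far apart, with means of 5.34 ± 0.683 and 2.08 ± 0.220 (SD, n = 3) and a log2 difference of -1.36 (p = 0.1 in a two-sided exact permutation test, which cannot go lower with 3 against 3, and 0.2 adjusted over 4 ratios). SHMT2 over SHMT1 was 10.3, 10.3 and 7.96 in WT and 7.93, 7.96 and 7.87 in MUL1(−/−). Here WT library 3 fell among the MUL1(−/−) values (log2 difference -0.25, exact permutation p = 0.2, adjusted 0.267). MTHFD2 over MTHFD1 was 0.456, 0.483 and 0.339 in WT and 0.303, 0.357 and 0.348 in MUL1(−/−), and the groups again overlapped in that library (log2 difference -0.33, exact permutation p = 0.3). MTHFD1L over MTHFD1 was 0.298, 0.301 and 0.230 in WT and 0.311, 0.313 and 0.344 in MUL1(−/−), higher in MUL1(−/−) without overlap (log2 difference 0.23, exact permutation p = 0.1, adjusted 0.2). That last direction turned on the most counted bin, where it was -0.16. None of the 4 ratios could reach an adjusted p under 0.05 in this design.

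**Figure D3:**
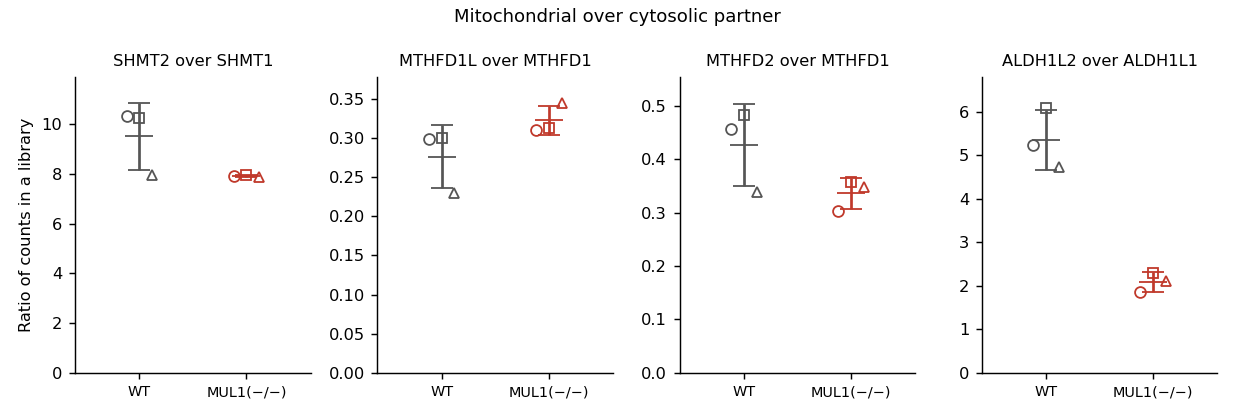
Counts of the mitochondrial enzyme over counts of its cytosolic counterpart in each library, on linear axes from 0. Symbols give the replicate, and bars are the mean ± SD of 3 libraries. ALDH1L2 over ALDH1L1 was at least 4.72 in WT and at most 2.28 in MUL1(−/−).

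MTHFD1L, the mitochondrial formyltetrahydrofolate synthetase that releases formate, stood at 114, 106 and 87.2 CPM in WT and 113, 109 and 116 CPM in MUL1(−/−) when all bins were summed. These values overlapped (log2 fold change 0.14, SE 0.09, adjusted p = 0.212, edgeR). Its direction depended on which bins were counted, since the most counted bin alone gave -0.26 (adjusted p = 0.0627, edgeR). The division of the gene into parts used from here on was chosen after these values were seen.

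The last exon of the short transcript MTHFD1L-201, used in place of the exon shown in capitals above, had 168, 173 and 117 counts in WT and 74, 75 and 69 counts in MUL1(−/−). Its share of the MTHFD1L counts went from 1.13% ± 0.0551 to 0.514% ± 0.0349 (SD, n = 3), with all MUL1(−/−) libraries lower. Against the rest of the gene this was a log2 difference of -1.14 (adjusted p = 7.06e-07, edgeR's diffSpliceDGE, adjusted over 313115 exon bins, of which 1.47% were called). It remained called with each library left out in turn, at -1.09 to -1.19. As a gene of its own in the edgeR fit, this exon stood at 1.16 ± 0.205 CPM in WT and 0.580 ± 0.0216 CPM in MUL1(−/−), with -0.996 on the log2 scale (SE 0.18, adjusted p = 5.86e-04, edgeR).

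Exons 2 to 7, which both transcripts use, had 4198, 4416 and 3181 counts in WT and 3329, 3227 and 3240 in MUL1(−/−). In CPM these were 33.04, 31.2 and 25.3 against 26.3, 25.8 and 26.1, so WT library 3 lay below the MUL1(−/−) values (log2 fold change -0.19, SE 0.09, adjusted p = 0.120, edgeR). Exons 8 to 28, which belong to the full-length transcript, had 9065, 9444 and 6864 counts in WT and 9927, 9284 and 9994 in MUL1(−/−). As CPM they were 71.3, 66.8 and 54.5 against 78.5, 74.2 and 80.6, higher in MUL1(−/−) without overlap (log2 fold change 0.28, SE 0.09, adjusted p = 0.0243, edgeR). Of these parts, exons 8 to 28 passed the test on their own and exons 2 to 7 did not. WT library 3 was the lowest WT library for both parts, and the parts were not refitted without it. In the other WT libraries, exons 2 to 7 stood at 33.04 and 31.2 CPM, above every MUL1(−/−) value. Exons 8 to 28 stood there at 71.3 and 66.8 CPM, below every MUL1(−/−) value. The calls therefore do not tell which part changed. The bins that belong to neither part nor to the last exon of MTHFD1L-201, most of whose counts lie in exon 1, were at 6.99 ± 0.877 and 8.53 ± 0.427 CPM in WT and MUL1(−/−) (SD, n = 3), with every MUL1(−/−) library above WT but the test not passed (log2 fold change 0.29, adjusted p = 0.0507, edgeR).

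The ratio of the parts varied little between libraries of a genotype. Counts of exons 2 to 7 over counts of exons 8 to 28 were 0.463, 0.468 and 0.463 in WT and 0.335, 0.348 and 0.324 in MUL1(−/−). WT library 3, which was low for the gene as a whole, did not stand apart in this ratio. The means were 0.465 ± 0.00251 and 0.336 ± 0.0117 (SD, n = 3; p = 0.1 in the exact permutation test, the lowest it can give here), a log2 difference of -0.47, and -0.44 to -0.50 with each library left out. Of the 38 MTHFD1L bins with a mean of at least 100 counts, the shares of 26 did not overlap between the genotypes, against 16.8% of such bins over all genes. The bins of a gene are not separate observations. A lower share of some raises the share of others, and a read counts in each bin it touches. All 7 bins of exons 2 to 7 were lower, as were the last exon of MTHFD1L-201 and a bin of 3 bases that starts exon 7 in another transcript, and 16 of the 27 bins of exons 8 to 28 were higher with none lower. The remaining bin lies at the 5′ end, in exon 1 of both transcripts (chr6:150865716-150865943), and was also higher, with 1.55% to 2.38% of the counts in WT and 2.49% to 2.71% in MUL1(−/−) (log2 difference 0.39 against the rest of the gene, adjusted p = 0.110, diffSpliceDGE). Exons 4 and 5 were also called singly (chr6:150877773-150877826, adjusted p = 0.0229, and chr6:150882762-150882886, adjusted p = 0.0218, diffSpliceDGE). The short and the long transcript are inferred here from bins, since reads across splice junctions were not used. Counts in the last exon of MTHFD1L-201 were 3.87% ± 0.168 of those in exons 2 to 7 in WT and 2.23% ± 0.0973 in MUL1(−/−) (SD, n = 3). Which transcripts changed the ratio of exons 2 to 7 over exons 8 to 28 was not tested.

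Of the 158 bins of the other 9 enzymes with a mean of at least 100 counts, the shares of 17 did not overlap, or 10.8%. The diffSpliceDGE test called 1 of their 286 bins. This was the bin of MTHFD1 from 64460005 to 64463457 on chromosome 14, which belongs to the last exon of the transcript MTHFD1-202, exon 27, and lies beyond the end of the other transcripts. It had 159, 193 and 184 counts in WT and 280, 222 and 231 in MUL1(−/−). Its share of the MTHFD1 counts was higher in every MUL1(−/−) library, 0.556% ± 0.0492 against 0.367% ± 0.0339 (SD, n = 3), a log2 difference of 0.60 against the rest of the gene (adjusted p = 4.64e-04, diffSpliceDGE). For MTHFD2 and ALDH1L2, 0 of 22 and 0 of 29 tested bins were called, and 0 had an unadjusted p under 0.05 in diffSpliceDGE. Over all genes only 1.47% of bins were called, and 11 bins of MTHFD2 and 1 of ALDH1L2 had a mean of at least 100 counts. The absence of calls therefore does not show that the fall was even along these genes.

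Per kilobase of the most densely counted bin of at least 100 bases, the WT order of the enzymes was SHMT2 at 223 CPM per kb, PHGDH at 170, MTHFD1 at 130, MTHFD2 at 116, PSAT1 at 82.5, MTHFD1L at 48.0, SHMT1 at 34.6, PSPH at 20.5, ALDH1L2 at 3.34 and ALDH1L1 at 0.622. In MUL1(−/−) the bins of these genes gave 221, 180, 118, 91.8, 80.6, 41.1, 38.7, 21.4, 2.05 and 1.23 CPM per kb. The order was the same in both genotypes. By the sum of all bins per kilobase of exon, where a read counts in each bin it touches, PSAT1 came at rank 2 and MTHFD2 at rank 5 in WT.

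The tables also held 14 pseudogenes named for members. MTHFD2P4 and PSAT1P1 were at 0 in all libraries, MTHFD2P1, MTHFD2P2, MTHFD2P5, MTHFD2P6, MTHFD2P7, PSAT1P2, PSAT1P4 and PSPHP1 never exceeded 3 counts, and MTHFD2P3 and PSAT1P3 reached 4. SHMT1P1 had 24, 30 and 22 counts in WT and 20, 13 and 18 in MUL1(−/−), and MTHFD1P1 had 17, 13 and 13 against 19, 20 and 13. None reached more than 0.364% of the counts of its parent gene in a library.

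The genes around the set were taken from 7 hand-made lists of 62 further genes, of which 58 could be tested. Of these, 15 rose, 17 fell and 26 did not pass the test, and the median log2 fold change was 0.01. Over all genes tested, 18.8% rose and 18.7% fell. The counts of the single lists below stand beside those shares, rest on few genes each, and were not put to a set test.

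In the list of folate uptake 3 of 4 tested genes rose and 1 fell, and the median log2 fold change was 0.73. SLC46A1, the proton-coupled folate transporter, had 19.3, 19.8 and 19.4 CPM in WT and 37.7, 35.9 and 44.6 CPM in MUL1(−/−), with no overlap (log2 fold change 1.01, SE 0.09, adjusted p = 5.72e-07, edgeR). Of its counts, 73.1% fell in bins that exons of other genes also cover, and on the remaining bins the value was 1.05 (adjusted p = 3.13e-06, edgeR). SLC46A1 lies on chromosome 17, as do SHMT1 and, among the genes below, SRR and PFAS. The genes around SLC46A1, SRR and PFAS were not examined, and whether their rises are particular to these genes was not tested. SLC25A32, the carrier that brings folate into mitochondria, rose from 17.4 ± 0.829 to 23.7 ± 1.65 CPM (SD, n = 3; log2 fold change 0.45, adjusted p = 6.57e-04, edgeR). SLC19A1, the reduced folate carrier, fell from 89.6 ± 4.17 CPM in WT to 74.9 ± 8.88 CPM (SD, n = 3; log2 fold change -0.26, adjusted p = 0.0242, edgeR), a call that was lost on the bins no other gene covers (-0.16, adjusted p = 0.159, edgeR). FOLR1, a folate receptor, passed the test at a log2 fold change of 1.23 (adjusted p = 0.0373, edgeR) from only 12, 27 and 12 counts in WT and 33, 18 and 62 in MUL1(−/−), which overlap, and FOLR2 had too few counts to be tested.

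Among 10 other enzymes that act on folates, 3 rose and 3 fell. MTHFS, which recycles 5-formyltetrahydrofolate, rose from 4.50 ± 0.395 to 8.21 ± 1.46 CPM (SD, n = 3; log2 fold change 0.87, adjusted p = 9.89e-05, edgeR). MTFMT, which uses the formyl group to start mitochondrial translation, rose by 0.27 on the log2 scale (adjusted p = 0.0139, edgeR), and FTCD, of histidine breakdown, by 1.19 (adjusted p = 0.00193, edgeR) from only 29, 21 and 31 counts to 59, 61 and 58. TYMS, the thymidylate synthase, had a log2 fold change of -0.20 (adjusted p = 0.0380, edgeR), the only one of the 3 that fell to be described here. With 54.1% of its counts in shared bins, TYMS did not pass on the others (-0.16, adjusted p = 0.117, edgeR).

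Of 9 tested carriers of serine and glycine, 2 rose and 3 fell. The glycine transporter SLC6A9 rose by 0.55 on the log2 scale (adjusted p = 0.00375, edgeR) and the neutral amino acid transporter SLC1A4 by 0.30 (adjusted p = 0.0311, edgeR). The sideroflexins SFXN3 and SFXN2, a family that carries serine into mitochondria, had log2 fold changes of -0.90 (adjusted p = 4.56e-05, edgeR) and -0.33 (adjusted p = 0.00914, edgeR), and the amino acid transporter SLC38A2 had -0.26 (adjusted p = 0.0186, edgeR). SFXN3 and SFXN2 start at 101031234 and 102714538 on chromosome 10, near the marker PAX2 at 100735603, which also fell. The genes around them were not examined. SFXN1, another sideroflexin, was at 218 ± 8.29 CPM in WT and at 199 ± 5.39 CPM in MUL1(−/−) (SD, n = 3) and did not pass the test (adjusted p = 0.133, edgeR). In the list of glycine cleavage and of serine and glycine breakdown, 3 of 12 rose and 4 fell. Serine racemase, SRR, had 35.0, 32.9 and 34.1 CPM in WT and 50.7, 50.8 and 52.4 CPM in MUL1(−/−) (log2 fold change 0.59, adjusted p = 1.02e-05, edgeR), and SDSL and DMGDH were the other two that rose. Of the SRR counts 83.4% fell in bins shared with other genes, and the remaining bins gave 0.89 (adjusted p = 1.97e-05, edgeR). The 4 that fell were GCAT, of threonine breakdown, at -0.39 (adjusted p = 0.00511, edgeR), DLD, the shared lipoamide dehydrogenase, at -0.26 (adjusted p = 0.00902, edgeR), SARDH and GLYCTK, whose call was lost on unshared bins (-0.23, adjusted p = 0.139, edgeR). GLDC, the decarboxylase of glycine cleavage, was at 51.4 ± 4.36 and 49.4 ± 0.839 CPM (SD, n = 3; adjusted p = 0.605, edgeR).

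The pathways that use the carbon units moved in both directions. In the methionine cycle 2 of 10 rose and 2 fell: methionine synthase MTR (log2 fold change 0.27, adjusted p = 0.00931, edgeR) and its reductase MTRR (0.59, adjusted p = 4.13e-05, edgeR) were higher, and AHCY, which clears S-adenosylhomocysteine, went from 473, 441 and 360 CPM in WT to 262, 263 and 255 CPM in MUL1(−/−) (-0.71, adjusted p = 1.35e-05, edgeR). Its relative AHCYL2 was lower by 0.41 on the log2 scale (adjusted p = 0.00125, edgeR). In purine synthesis 1 of 8 rose and 3 fell. GART, which takes formyl groups from folate in the purine pathway, had 469, 434 and 430 CPM in WT and 305, 333 and 326 CPM in MUL1(−/−), without overlap (log2 fold change -0.47, adjusted p = 5.73e-05, edgeR). PRPS2 (-0.39, adjusted p = 9.47e-04, edgeR) and PAICS (-0.28, adjusted p = 0.00229, edgeR) were lower too, and PFAS was higher (0.44, adjusted p = 1.80e-04, edgeR). ATIC, the other folate-dependent step, did not pass (-0.12, adjusted p = 0.141, edgeR). Of 5 genes of transsulfuration and glutathione synthesis, GCLC, a subunit of the first enzyme of glutathione synthesis, rose (0.74, adjusted p = 2.01e-06, edgeR) and GSS, the second enzyme, fell (-0.41, adjusted p = 9.14e-04, edgeR). AHCY and GSS, which both fell, start at 34280268 and 34928433 on chromosome 20, and the genes around them were not examined.

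**Figure D4:**
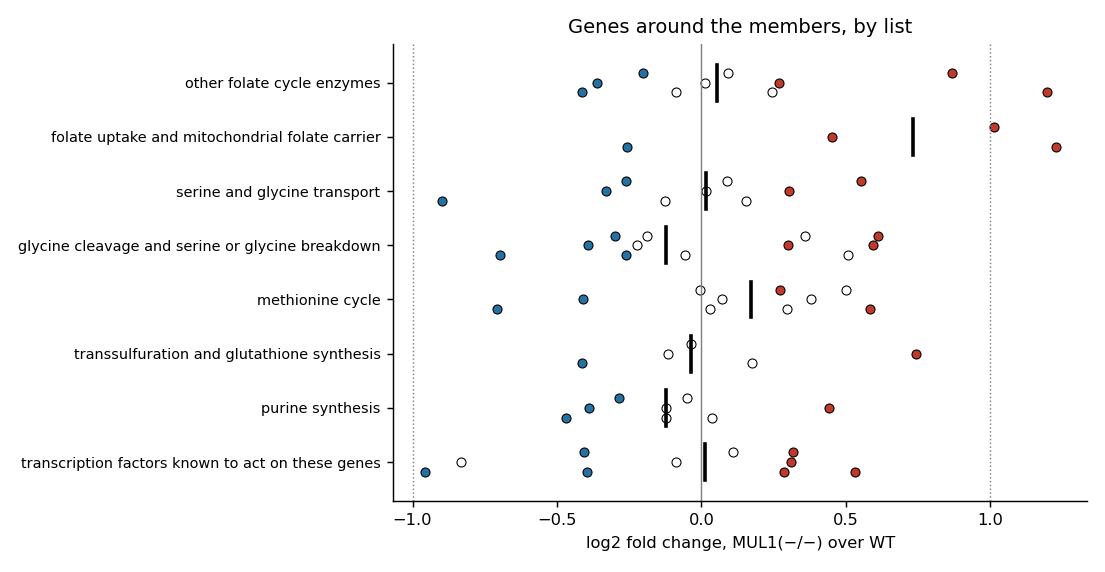
Log2 fold change, MUL1(−/−) over WT, of every tested gene in the lists around the set. Filled circles had an adjusted p under 0.05 (red higher, blue lower), black bars are list medians, and dotted lines mark -1 and 1. The median of the folate uptake list, 0.73 over 4 genes, lies farthest from 0, and the other medians lie between -0.12 and 0.17.

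Of 10 transcription factors known to act on genes of these pathways, 4 rose and 3 fell, beside 18.8% and 18.7% of all genes tested. ATF4 had 423, 404 and 305 CPM in WT and 272, 273 and 310 CPM in MUL1(−/−), where WT library 3 and MUL1(−/−) library 3 overlap (log2 fold change -0.40, SE 0.10, adjusted p = 0.00531, edgeR). Its dimer partner gene DDIT3 had 36.1, 37.4 and 39.0 CPM in WT and 28.96, 31.2 and 25.3 CPM in MUL1(−/−) (log2 fold change -0.40, adjusted p = 0.00176, edgeR). Of the DDIT3 counts 51.0% lay in shared bins, and the others gave -0.45 (adjusted p = 0.00469, edgeR). MYC fell from 302, 282 and 182 to 138, 138 and 118 CPM (log2 fold change -0.96, adjusted p = 6.60e-05, edgeR). Among the 4 that rose were CEBPG at 0.32 (adjusted p = 0.00481, edgeR), ATF5 at 0.31 (adjusted p = 0.0175, edgeR) and ATF3 at 0.29 (adjusted p = 0.0488, edgeR), of which ATF5 lost its call on unshared bins (0.31, adjusted p = 0.0588, edgeR). ATF4 is regulated mainly at translation, so its RNA does not give its activity. Whether any of these factors acted on the enzymes was not tested.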

How the data were processed

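RNA-seq of 6 HEK293 samples (3 WT and 3 MUL1(−/−)) was analysed. Per the labels, libraries were made with the SMARTer mRNA-Seq kit, and the submitters' processing notes name Trimmomatic 0.36, STAR 2.5.2b and GRCh38. The counting program is not given in the sources used here. The authors deposited raw counts per exon bin, unnormalized, of 597973 bins. Bins were summed per gene, and bins under joined identifiers were assigned with GENCODE 29 where a single gene matched. A read counts in each bin it touches, so sums exceed reads, and strand was not used.

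The design had assumed gene counts. Genes were compared with edgeR 4.0.16 (TMM, filterByExpr, quasi-likelihood test, Benjamini-Hochberg over 25125 genes) in R 4.3.3, at the adjusted p under 0.05 and absolute log2 fold change above 1 of the study. Exon bins were tested with edgeR's diffSpliceDGE and exact permutation tests (scipy 1.17.1). DESeq2 1.42.0 and limma 3.58.1 gave alternatives, beside other scaling, filters, the replicate block, left-out libraries, the most counted bin and bins covered by no other gene. On simulated data for 25125 genes with 200 changed by a log2 fold change of 2, edgeR recovered 200 with 5 false calls. Replicates differed by 2.95 to 10.8 times sampling noise and were kept separate. Python 3.11.15, pandas 2.3.3, numpy 2.4.6 and matplotlib 3.10.9 were used for tables and figures.

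The members and lists were chosen with earlier results of these data known. Named were MUL1, the 10 members, their pseudogenes, and in each list the genes past both thresholds, otherwise, in each direction, the 2 of smallest p, and those that a count needed. SFXN1, GLDC and ATIC were named after their values were seen. Some genes and a sequence that this rule covers are not reported here, though the genes stand in the counts of their lists.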

Additional observations from a re-analysis of the deposited data

How the results depend on the processing

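MTHFD2 and ALDH1L2 kept direction and call in all 15 alternative fits, and the number of enzymes that fell stayed at 2. The number that rose was 1 in place of 2 on the most counted bin and ranged from 1 to 2 with each library left out. ALDH1L1 was at 0.0014 on the most counted bin, and at 0.30 to 0.54 with each library left out; SHMT1 was at 0.20 to 0.26. On the log2 scale MTHFD1L passed with library totals (0.22, adjusted p = 0.0447, edgeR) and turned to -0.26 on the most counted bin, as did its ratio to MTHFD1 (-0.16), where its most counted bin is that of exon 5. With library totals PSAT1 (0.026) and SHMT2 (0.040) changed sign, none of them called. Leaving out libraries gave -0.089 to 0.13 for PHGDH, -0.18 to 0.047 for PSAT1 and -0.14 to 0.040 for SHMT2, while MTHFD1L stayed at 0.04 to 0.23. Less the median of the neighbouring genes, SHMT1 was reversed at -0.29, PHGDH, which was not called, changed sign to -0.11, PSPH was at 0.23 and MTHFD1 at -0.0087. Past both thresholds, 1 enzyme in place of 0, ALDH1L2, was lower on the most counted bin and 0 to 1 with each library left out. For the lists, leaving out libraries gave 11 to 15 genes higher and 10 to 17 lower, the fewest lower without MUL1(−/−) library 1 (10) and WT library 1 (11). The cause of these changes was not tested except where named. Library totals moved the share of higher genes among all calls from 50.1% to 60.8%, and a filter of 1 CPM in 3 samples left 777 in place of 2037 genes past both thresholds.

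Across 15858 genes, the deviations of same-numbered libraries correlated with r = -0.0812, 0.157 and 0.1003, so the numbers were not taken as pairs. With the replicate block the enzymes' calls were as without it: 2 higher and 2 lower, with MTHFD2 at -0.41, ALDH1L2 at -0.90, SHMT1 at 0.23 and ALDH1L1 at 0.46. Not every library correlated best with the one of its number.

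Counts per library were low for PTPRC (8 to 52), FOLR1 (12 to 62) and FTCD (21 to 61); intervals were not needed where replicates gave the error.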
